A study of Mus musculus with 2 samples.

Results

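The genes described here are Cd14, Ly96, Tlr2, Tlr4, Tlr7, Tlr9, Tlr13 and Myd88, which belong to the Toll-like receptor system of innate immunity. They were chosen by name as a set of surface receptors, endosomal receptors and an adaptor, and they are 8 of the 23946 genes in the count tables. All 8 had UMIs in both libraries. Toll-like receptors recognise microbial molecules and, by many accounts, molecules released by injured cells. Receptors at the cell surface bind lipids, lipoproteins and some proteins, while endosomal receptors bind nucleic acids, and most of them pass the signal through the adaptor Myd88 to NF-κB. In the heart, macrophages, monocytes and neutrophils are the leukocytes best known for this sensing after tissue damage.

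The cells were CD45+ leukocytes sorted from the hearts of female wild-type C57BL/6J mice (C57BL6 in the labels). One group, labelled TTS for Takotsubo syndrome, had received the β-adrenergic agonist isoproterenol at 200 mg/kg into the peritoneum 24 h before, and the Control group had received vehicle (PBS). The deposited labels give the isoproterenol protocol for both samples, so the control group was identified by its title and by the methods. The hearts of 3 mice per group were pooled and about 15K cells per group were loaded for droplet 3′ sequencing, which gave 1 library per group. No difference below therefore has a replicate check, no test was made, and all intervals are 95% intervals that cover counting error only.

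The Control library held 47382455 UMIs (unique molecular identifiers, each standing for a captured RNA molecule) on 5927 barcodes, and the TTS library held 58495112 UMIs on 5514 barcodes. The libraries shared 15 barcode sequences. Of these barcodes, 5641 Control and 5437 TTS cells passed the filters on genes and mitochondrial UMIs, with medians of 4790 and 8537 UMIs per cell. Ptprc, the gene of CD45, had a UMI in 91.0% of the Control and 88.8% of the TTS cells, at levels of 747 and 389 CPM (counts per 10⁶ UMIs). Fibroblast markers reached 64.9 and 16.6 CPM and cardiomyocyte markers 32.6 and 20.8 CPM. Endothelial markers, led by Fabp4, reached 137 and 124 CPM, with a UMI in 37.0% of the cells of both libraries. A share of cells with a UMI is therefore not read as expression by itself.

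Cells were assigned to leukocyte classes by summed marker UMIs, and none of the 8 genes served as a marker. In the Control library this gave 1928 B cells, 402 NK cells, 179 T cells and 149 ILC2s. The Control myeloid classes held 422 resident macrophages (Timd4, Lyve1, Folr2 or Cd163), 311 MHC class II-high macrophages, 108 Ccr2 macrophages, 38 classical monocytes, 76 nonclassical monocytes and 117 neutrophils. The TTS library held 49 B cells, 31 NK cells, 53 T cells and 95 ILC2s, beside 177 resident, 42 MHC class II-high and 588 Ccr2 macrophages, 1223 classical monocytes, 78 nonclassical monocytes and 124 neutrophils. Cells with both neutrophil and monocyte or macrophage markers formed a class of their own, with 117 Control and 501 TTS cells. Dendritic cells comprised 35 and 51 cDC1s, 46 and 256 cDC2s, 17 and 38 plasmacytoid cells (pDCs), and 1 and 28 mature cells. Not every class is described here. In no class were 1694 Control and 1482 TTS cells, of which 1430 and 610 passed at least 2 gates, 171 and 781 passed none, and 93 and 91 passed 1.

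The classes are ranges of marker scores, and their cells were not the same in both libraries. MHC class II transcripts in Ccr2 macrophages were at 57645 CPM in Control and 7515 CPM in TTS cells, and classical monocyte markers in the same class were at 679 and 4872 CPM. In the TTS library 153 of the 588 Ccr2 macrophages and 202 of the 1223 classical monocytes scored under 1.5 times the limit of their gate. Among nonclassical monocytes this was 27 of 78 TTS cells and 2 of 76 Control cells, the largest such share. Differences between libraries within such a class include its makeup, and the part of the makeup was not tested.

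Cd14 was the most abundant of the 8 genes and the one that stood most clearly higher in the TTS library, while Tlr7 stood lower in 6 monocyte, macrophage and mixed neutrophil classes. Tlr2, the second most abundant, differed little in classical monocytes and macrophages and was higher in TTS nonclassical monocytes. Tlr4 and Ly96 were sparse, Tlr13 and Myd88 lay within 2-fold in most classes, and Tlr9 was close to the limit of detection. UMI counts from 3′ ends do not scale with transcript length, so levels are set side by side between genes in CPM.

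**Figure D1:**
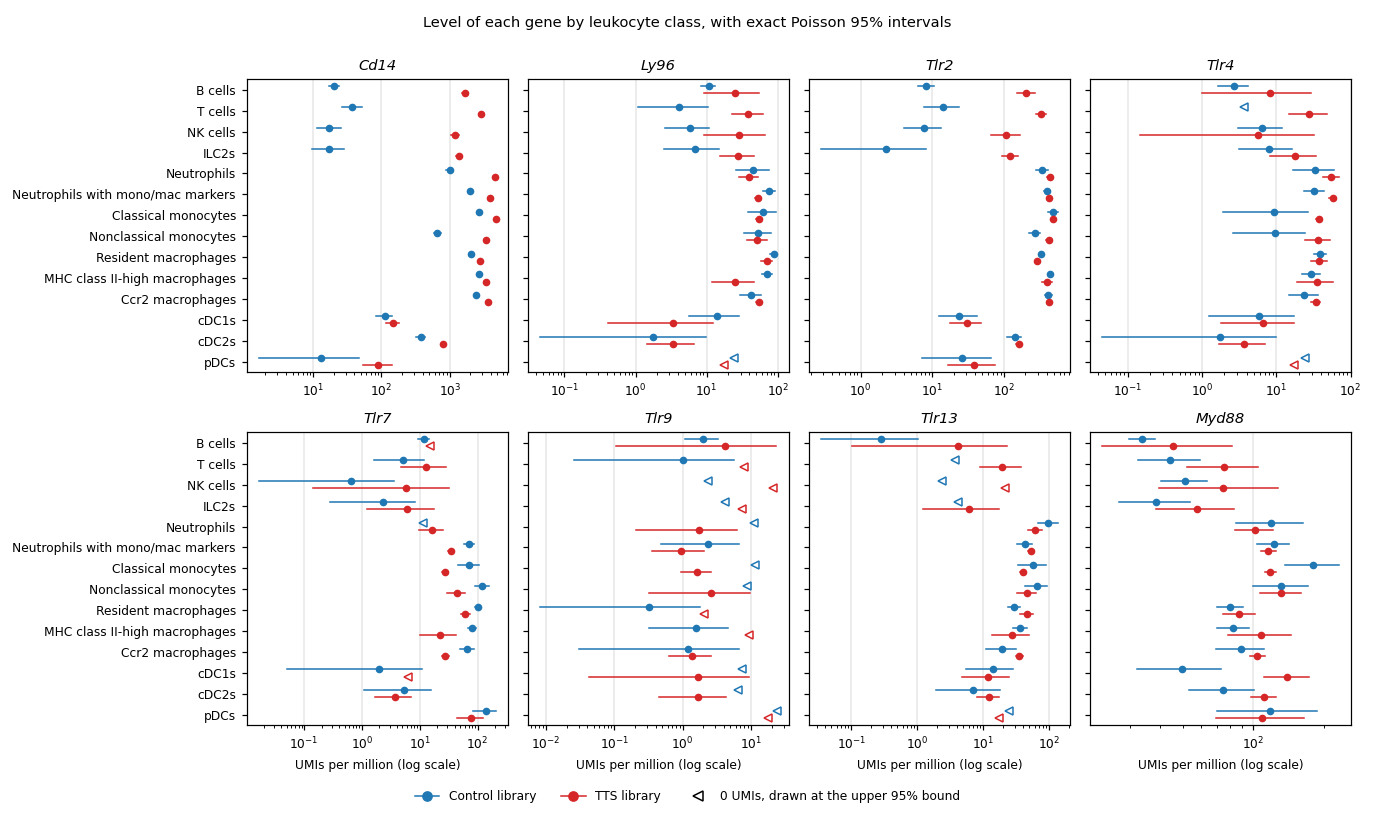
CPM (log axis) of each gene in each leukocyte class, in the Control (blue) and TTS (red) libraries, with exact Poisson 95% intervals, and open triangles at the upper bound where the count was 0. Classes with at least 17 cells in both libraries are drawn. Cd14 lies further right in the TTS than in the Control library in all of them, and Tlr7 lies further left in monocytes and macrophages.

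Ratios between the libraries were taken in the 13 classes with at least 30 cells in both, for genes with at least 20 UMIs over both libraries. This minimum left 72 of the 104 pairs of gene and class, and a sparse gene can pass it through the library where it is higher. Of these 72 pairs, 18 were at least 2-fold higher and 7 at least 2-fold lower in the TTS library. Over all genes and the same classes, 12.2% of 106123 pairs were at least 2-fold higher and 14% at least 2-fold lower. The counting interval lay apart from 0 for 16 of the 18 higher and 6 of the 7 lower pairs. Of the 18 higher pairs, 12 lay in B, T and NK cells and ILC2s. In the other 9 classes, a split chosen after the data were seen, 6 of 55 pairs were higher and 6 lower, beside 12.3% and 13.8% of all pairs there, so the number of pairs past the limit was near the background in myeloid cells.

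By class, the members past the limit were as follows. In B cells, 4 of 6 tested members were higher (all genes 12.9%) and 1 lower (15.9%). In T cells, 3 of 4 were higher (14.5%) and 0 lower (15.1%). In NK cells, 2 of 3 were higher (8.80%) and 0 lower (18%), and in ILC2s 3 of 4 were higher (12.6%) and 0 lower (7.38%). The higher lymphoid calls concern Cd14, Tlr2, Ly96 and Tlr4, genes of myeloid cells. Of these, Cd14 and Tlr2 are taken up with the markers of such cells below. In B cells Ly96 rests on 6 TTS UMIs (log2 interval -0.27 to 2.41) and Tlr4 on 2 TTS UMIs (-1.53 to 3.67). Neither of these is a detected difference. The lower call in B cells is Tlr7, on 0 TTS UMIs. In neutrophils, 1 of 6 was higher (34.7%) and 0 lower (15.1%). In neutrophils with monocyte or macrophage markers, 0 of 7 were higher (8.67%) and 1 lower (15.9%).

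In classical monocytes, 1 of 7 was higher (12.7%) and 1 lower (20.2%), and in nonclassical monocytes 2 of 7 were higher (12.4%) and 1 lower (12%). Resident macrophages had no member past the limit, with 0 of 7 higher (7.80%) and 0 lower (9.99%). In MHC class II-high macrophages, 0 of 7 were higher (11.9%) and 2 lower (14.5%), and in Ccr2 macrophages 0 of 7 were higher (11.4%) and 1 lower (15.3%). In cDC1s, 1 of 3 was higher (9.74%) and 0 lower (8.32%), and in cDC2s 1 of 4 was higher (7.69%) and 0 lower (9.75%). The genes past the limit in these myeloid classes were Cd14, Tlr4 and Myd88 upward and Tlr7 and Ly96 downward.

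**Figure D2:**
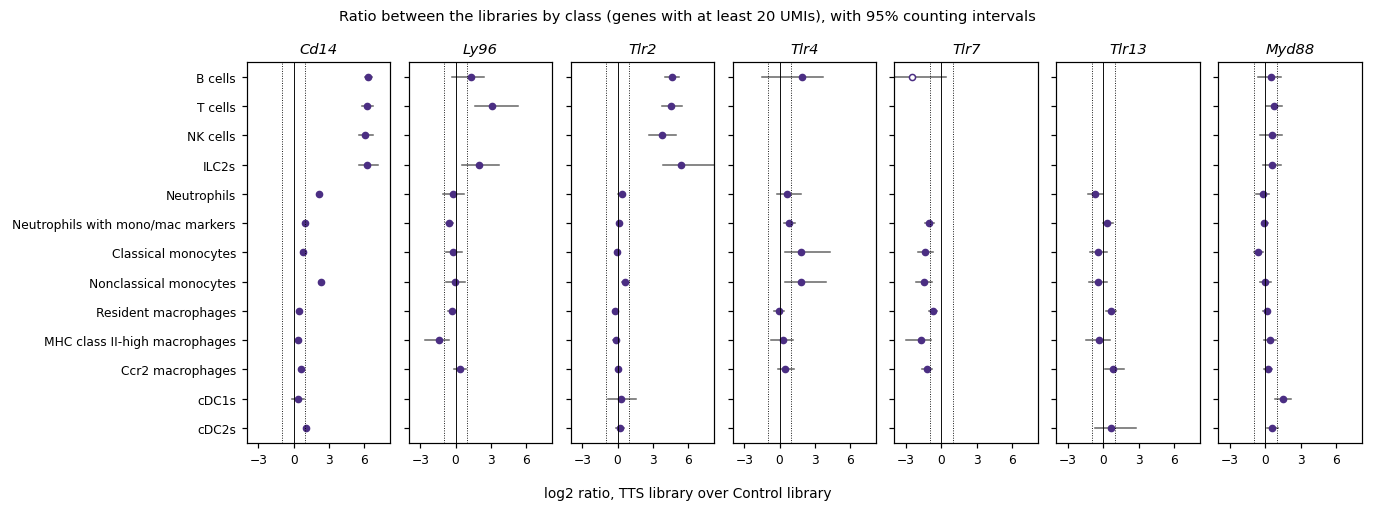
Log2 ratio of the TTS over the Control library for each gene with at least 20 UMIs in a class (points) with 95% counting intervals (lines, ended at the edge of the panel where longer). Dotted lines mark 2-fold, and the open point is a class with 0 UMIs in 1 library. Cd14 points lie right of 0 in all 13 classes and Tlr7 points left of 0 in all 7 classes shown.

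Cd14 encodes a protein at the cell surface that binds bacterial lipopolysaccharide and hands it to the Tlr4 complex, and it also serves Tlr2. Its Control level was highest in classical monocytes at 2723 CPM (95% interval 2546 to 2909) and in MHC class II-high macrophages at 2683 CPM (2611 to 2757), whose intervals overlap. Ccr2 macrophages followed at 2412 CPM, resident macrophages at 2022 CPM and neutrophils with monocyte or macrophage markers at 1960 CPM. Control neutrophils were lower at 997 CPM and Control nonclassical monocytes lower still at 657 CPM. Among dendritic cells, cDC2s had 374 CPM and cDC1s 111 CPM.

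Cd14 in TTS cells reached 4748 CPM (4706 to 4790) in classical monocytes and 4563 CPM (4441 to 4688) in neutrophils, the top 2 classes. Neutrophils with monocyte or macrophage markers had 3883 CPM, Ccr2 macrophages 3661 CPM, MHC class II-high macrophages 3392 CPM and nonclassical monocytes 3352 CPM. Resident macrophages were the lowest of these at 2822 CPM. Monocytes, neutrophils and macrophages thus lay closer together in the TTS than in the Control library, and the classes that were low in the Control library differed most.

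The largest myeloid differences in Cd14 were in nonclassical monocytes, with a log2 ratio of 2.35 (2.17 to 2.54, 5.10-fold), and in neutrophils, 4.57-fold with a log2 interval from 2.03 to 2.36. The log2 ratio was 1.09 in cDC2s, 0.99 in neutrophils with monocyte or macrophage markers and 0.80 in classical monocytes. In macrophages it was 0.60 in Ccr2, 0.48 in resident and 0.34 in MHC class II-high cells. Another scaling, by the median ratio over genes, put the last of these at -0.09, so its direction depends on the scaling. In cDC1s it was 0.39 (-0.10 to 0.91), and it fell below 0 with other gate limits, with free RNA subtracted and with high doublet scores left out (down to -0.48). In cDC2s it was 0.45 with free RNA subtracted. Nonclassical monocytes of the TTS library also held fewer of their own markers (3678 against 1732 CPM) and more of the classical ones (3659 against 5583 CPM), and the part of this in the Cd14 ratio was not tested. Neutrophil markers in the neutrophil class were at 21258 and 6137 CPM, with macrophage markers at 274 and 687 CPM, and their part was not tested either.

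The share of cells with a Cd14 UMI was also higher in TTS neutrophils and nonclassical monocytes, but it did not follow the order of the levels. TTS classical monocytes, with the highest level, had a lower thinned share than TTS neutrophils. After each cell was thinned to 1000 UMIs, which kept 5627 of 5641 Control and all 5437 TTS cells, 18.4% of Control and 78.2% of TTS nonclassical monocytes had a Cd14 UMI (57.9% and 92.3% before thinning). Among neutrophils the thinned shares were 42.7% and 93.5% (59.8% and 97.6% before thinning). Among classical monocytes they were 81.6% and 86.2% (97.4% in both before thinning), with interval bounds that overlap. B cells, which should lack Cd14, had thinned shares of 2.08% and 24.5% (6.95% and 44.9% before thinning). Their median depths were 3226 and 3640 UMIs, against 9024 and 7608 UMIs in classical monocytes. TTS T cells, which should also lack it, had a thinned share of 50.9% (36.8 to 64.9) and 66.0% before thinning, at a median of 7510 UMIs. The TTS shares of neutrophils and nonclassical monocytes were above those of both classes.

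Ly96 encodes MD-2, the small secreted partner that completes the lipopolysaccharide receptor with Tlr4. Its highest level was in resident macrophages in both libraries, at 87.6 CPM (77.6 to 98.6) for Control and 70.6 CPM (58.9 to 84.1) for TTS cells. Classical monocytes had 62.0 and 54.1 CPM, nonclassical monocytes 52.7 and 51.3 CPM, neutrophils 45.6 and 39.0 CPM, and Ccr2 macrophages 42.0 and 54.7 CPM. Most neighbours in this order have overlapping intervals. Dendritic cells had little Ly96, with 1.77 and 3.32 CPM in cDC2s and 13.9 and 3.36 CPM in cDC1s on 7 and 2 UMIs, and pDCs had 0 UMIs in both libraries.

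Between the libraries Ly96 was at least 2-fold lower in MHC class II-high macrophages, at 71.5 against 25 CPM (log2 ratio -1.45, -2.61 to -0.59). This rests on 10 UMIs in 42 TTS cells, and gates at 2 times the limits gave -0.72. In the remaining monocyte, macrophage and neutrophil classes the log2 ratio lay between -0.53 and 0.36. In neutrophils, classical monocytes and nonclassical monocytes its sign changed with the scaling. Under other alternatives the sign turned in resident macrophages (up to 0.47) and in Ccr2 macrophages (down to -0.12). In neutrophils with monocyte or macrophage markers an alternative put Ly96 at -1.08.

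Tlr2 encodes the receptor for bacterial lipoproteins, which works in pairs with Tlr1 or Tlr6. Among Control cells it was highest in classical monocytes at 493 CPM (419 to 576), followed by MHC class II-high macrophages at 440 CPM, Ccr2 macrophages at 419 CPM, neutrophils with monocyte or macrophage markers at 402 CPM, neutrophils at 344 CPM and resident macrophages at 332 CPM. Nonclassical monocytes had 268 CPM, cDC2s 141 CPM and cDC1s 23.8 CPM. Among TTS cells classical monocytes were again at the top with 487 CPM (473 to 500), and neutrophils, nonclassical monocytes and Ccr2 macrophages lay between 425 and 435 CPM. The intervals of these 3 overlap, and resident macrophages lay under them at 293 CPM (268 to 319).

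Tlr2 differed little between the libraries in the classes where it is abundant. Its log2 ratio was -0.02 (-0.25 to 0.22) in classical monocytes, 0.02 (-0.14 to 0.19) in Ccr2 macrophages, -0.12 in MHC class II-high macrophages and -0.18 (-0.34 to -0.03) in resident macrophages. The sign in classical monocytes changed with the scaling, and the other 3 changed sign under at least 1 other alternative. It was 0.33 (0.04 to 0.65) in neutrophils and 0.67 (0.36 to 1.0) in nonclassical monocytes, the only myeloid classes other than the dendritic ones where it was past 0.3. In neutrophils the alternatives gave values from -0.003 to 0.96, so the sign was not kept under all of them. Cd14 and Tlr2 had similar orders of classes, but only Cd14 stood several-fold higher in TTS neutrophils and nonclassical monocytes.

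Tlr4 encodes the signalling chain of the lipopolysaccharide receptor and has been proposed as a sensor of damage products. It was sparse everywhere. Control resident macrophages had 39.4 CPM (32.7 to 46.9) on 124 UMIs, neutrophils 33.4 CPM, MHC class II-high macrophages 29.5 CPM and Ccr2 macrophages 24.0 CPM. Control classical and nonclassical monocytes had 9.30 and 9.59 CPM, on 3 and 4 UMIs. In the TTS library neutrophils had 55.4 CPM (42.7 to 70.8), neutrophils with monocyte or macrophage markers 57.5 CPM, and classical monocytes, resident macrophages and nonclassical monocytes 37.8, 37.8 and 36.8 CPM.

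The Tlr4 log2 ratio was 1.80 in classical monocytes, with an interval from 0.47 to 4.31, and 1.80 in nonclassical monocytes, from 0.43 to 3.91. These wide intervals come from the few Control UMIs. In neutrophils with monocyte or macrophage markers it was 0.81 (0.36 to 1.33), in neutrophils 0.68 (-0.21 to 1.80) and in resident macrophages -0.05 (-0.51 to 0.38). Thinning each cell to 1000 UMIs before summing put Tlr4 in resident macrophages at -1.07. Other alternatives put it past 2-fold higher in neutrophils (up to 1.30), in those with monocyte or macrophage markers (1.31) and in MHC class II-high macrophages (1.03). Tlr4 thus had no clear difference in resident macrophages and was higher in TTS monocytes, which in the Control library lay under the resident macrophages.

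Few cells showed the whole lipopolysaccharide receptor at once. After thinning to 2000 UMIs, UMIs of Cd14, Tlr4 and Ly96 together were found in 6 of 402 Control and 2 of 177 TTS resident macrophages, and in 8 of 1223 TTS classical monocytes. No Control classical monocyte (0 of 38) had all 3. At such levels a cell with 2000 UMIs rarely yields a Tlr4 or Ly96 UMI, so these are counts of cells with UMIs and not of cells with the receptor. Cd14 and Tlr2 together were found in 12.3% of Control and 50% of TTS nonclassical monocytes, and in 47.4% and 52.0% of classical monocytes. The same pair was found in 0.562% and 34.0% of T cells and 0.0539% and 10.2% of B cells, classes that should lack both genes.

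Tlr7 encodes an endosomal receptor for single-stranded RNA. In the Control library it was highest in pDCs, the class best known for it, at 138 CPM (85.2 to 210) on 21 UMIs in 17 cells. Among the classes with at least 30 cells it was highest in nonclassical monocytes at 120 CPM (88.9 to 158) and resident macrophages at 101 CPM (89.8 to 112). MHC class II-high macrophages had 80.8 CPM, classical monocytes 71.3 CPM and Ccr2 macrophages 66.0 CPM. B cells had 11.9 CPM.

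TTS pDCs had 76.1 CPM (43.5 to 124), resident macrophages 61.7 CPM and nonclassical monocytes 43.4 CPM. Ccr2 macrophages, classical monocytes and MHC class II-high macrophages lay between 22.5 and 27.7 CPM. Tlr7 was lower in all 7 classes with at least 20 UMIs, of which B cells and MHC class II-high macrophages (9 TTS UMIs) passed this minimum through the Control library alone. The log2 ratio was -1.77 (-3.0 to -0.88) in MHC class II-high macrophages, -1.46 (-2.15 to -0.80) in nonclassical monocytes, -1.40 (-1.98 to -0.69) in classical monocytes and -1.26 (-1.69 to -0.79) in Ccr2 macrophages. In resident macrophages it was -0.70 (-1.03 to -0.39). With cells thinned to 1000 UMIs before summing, Tlr7 came to -0.77 in Ccr2 and -1.35 in resident macrophages, so the order of these classes was not stable. In neutrophils with monocyte or macrophage markers it was -1.04 (-1.39 to -0.67), but -0.76 at 2 times the gate limits and -0.83 with scaling by the median ratio. Neutrophils, 1 UMI short of the minimum, went the other way, with 0 UMIs of 328919 in the Control and 19 UMIs (16.4 CPM) in the TTS library. That is at least 1.80-fold higher, since 3 Control UMIs would be 9.12 CPM. After thinning to 1000 UMIs no neutrophil had a Tlr7 UMI in either library. After thinning to 2000 UMIs 0 of 100 Control and 2 of 124 TTS neutrophils had one. The free-RNA share of neutrophils was 3.43% and 17.1%. The source of these UMIs was not tested.

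The lower Tlr7 value of TTS B cells is not a detected difference. They had 0 UMIs of 242402, and 3 UMIs would be 12.4 CPM, above the Control level of 11.9 CPM. In pDCs the Control and TTS intervals overlap, so a difference was not detectable with 17 and 38 cells. After thinning, 9.24% of Control and 3.95% of TTS resident macrophages had a Tlr7 UMI (44.8% and 42.9% before thinning). T cells and NK cells, which should have little Tlr7, had 0% in both libraries (before thinning 2.23% and 9.43% of T cells, 0.249% and 3.23% of NK cells). Their median depths were 5184 and 3566 UMIs in the Control and 7510 and 4538 UMIs in the TTS library, against 6528 and 7346 UMIs in resident macrophages.

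Tlr9 encodes the endosomal receptor for unmethylated CpG DNA, known above all from B cells and pDCs. It had 63 UMIs in all kept Control cells and 79 in all kept TTS cells, and in no class did it reach the 20 UMIs needed for a ratio. Control B cells held 14 of the 63 UMIs, a level of 1.99 CPM (1.09 to 3.33), and TTS classical monocytes 17 of the 79, a level of 1.62 CPM. Barcodes in no class held more, with 40 of the 63 and 29 of the 79. No Tlr9 UMI was found in pDCs, where 3 UMIs would be 19.7 CPM among Control and 14.3 CPM among TTS cells. Over all kept cells the log2 ratio of Tlr9 was -0.09 (-0.58 to 0.42), so no difference was seen in the sums. By class, Tlr9 could be neither ranked nor compared at this depth.

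Tlr13 encodes an endosomal receptor for bacterial ribosomal RNA that mice have and humans lack. Control neutrophils had most of it, at 97.3 CPM (66.5 to 137), followed by nonclassical monocytes at 64.7 CPM, classical monocytes at 55.8 CPM, MHC class II-high macrophages at 36.3 CPM, resident macrophages at 29.2 CPM and Ccr2 macrophages at 19.2 CPM. Control lymphoid classes had almost none, with 2 UMIs in B cells and 0 in T cells, NK cells and ILC2s. TTS neutrophils were again highest at 60.6 CPM (47.2 to 76.6), and nonclassical monocytes, resident macrophages and classical monocytes had 46.0, 45.6 and 40.4 CPM.

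Tlr13 was within 2-fold in all 8 classes compared, and its log2 ratio had no common direction. Under at least 1 alternative it passed 2-fold in 6 of them, up to 3.23 in Ccr2 macrophages and 1.59 in resident macrophages and down to -1.24 in neutrophils. It was -0.70 (-1.31 to -0.03) in neutrophils, -0.50 in both monocyte classes (intervals across 0), 0.64 (0.20 to 1.09) in resident macrophages and 0.84 (0.15 to 1.71) in Ccr2 macrophages. With the main scaling, the spread of Tlr13 across monocytes, macrophages and neutrophils was thus smaller in the TTS than in the Control library. The same held for Cd14 in these classes. Scaling by the median ratio put Tlr13 at -0.07 in neutrophils and -0.77 in MHC class II-high macrophages, so the size of this narrowing depends on the scaling. T cells, under the minimum of 20 UMIs, had 0 Control and 9 TTS UMIs of Tlr13. That is at least 6.40-fold higher and is not read as expression by T cells. In the sum of all kept cells Tlr13 was higher in the TTS library (log2 ratio 1.11), although none of the 8 classes compared was past 2-fold. In the same sums Cd14 stood at 1.57, Tlr4 at 1.16, Tlr2 at 0.97, Myd88 at 0.66, Ly96 at 0.29 and Tlr7 at -0.91, and these values include the different cell makeup of the libraries.

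Myd88 encodes the adaptor shared by nearly all Toll-like receptors and by the receptors of the interleukin-1 family. Like Cd14 and Tlr2, it had at least 20 UMIs in all 13 classes. Among Control cells it was highest in classical monocytes at 180 CPM (137 to 233) and nonclassical monocytes at 132 CPM, and reached 119 CPM in neutrophils, 88.8 CPM in Ccr2 and 79.7 CPM in resident macrophages. Lymphoid classes had 33.6 CPM in B cells, 38.7 CPM in ILC2s, 44.4 CPM in T cells and 51.3 CPM in NK cells. In the TTS library cDC1s led with 139 CPM (111 to 173), and monocytes, neutrophils, macrophages and cDC2s lay between 87.3 and 132 CPM.

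The Myd88 log2 ratio was 1.47 (0.83 to 2.20) in cDC1s, at 49.5 against 139 CPM on 25 and 83 UMIs. This was the only class past 2-fold, and gates at 2 times the limits, which left 26 TTS cDC1s, gave 0.93. With cells thinned before summing, Myd88 also reached 1.61 in cDC2s, 1.18 in B cells and 1.0 in nonclassical monocytes. It was 0.57 in cDC2s, 0.13 in resident macrophages, -0.01 in nonclassical monocytes (sign changed with the scaling) and -0.62 (-0.98 to -0.20) in classical monocytes. In the lymphoid classes it lay between 0.49 and 0.77, all within 2-fold. Myd88 was thus found in all classes and, outside cDC1s, within 2-fold.

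In B, T and NK cells and ILC2s, Cd14 differed by more than in any myeloid class. It was at 20.4 and 1675 CPM in B cells, 37.3 and 2849 CPM in T cells, 17.3 and 1209 CPM in NK cells and 17.1 and 1349 CPM in ILC2s. Tlr2 moved the same way, from 8.23 to 206 CPM in B cells and from 14.1 to 332 CPM in T cells. In the TTS library the number of Cd14 UMIs per Tlr2 UMI in these classes was 8.12, 8.59, 11.1 and 11.1, close to the 9.76 of TTS classical monocytes. In the Control library it was 2.48, 2.64, 2.25 and 7.50. Other ratios did not match in this way. Cd14 UMIs per Lyz2 UMI were 0.454, 0.404, 0.268 and 0.366 in these TTS classes against 0.212 in classical monocytes, and per Ccl2 UMI 0.496, 0.736, 3.25 and 0.701 against 0.986.

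Myeloid markers moved with these values. The 6 classical monocyte markers summed to 367 CPM in Control and 1559 CPM in TTS T cells, 603 and 1328 CPM in B cells, and 99.0 and 730 CPM in ILC2s, but to 840 and 659 CPM in NK cells. The 10 macrophage markers summed to 124 and 829 CPM in T cells and 140 and 421 CPM in B cells, while T cell markers in T cells were at 2668 and 1355 CPM. The share of UMIs estimated from foreign lineage markers to be free RNA was 2.33% in Control and 22.9% in TTS T cells, and 2.37% and 10.7% in B cells. Subtracting that share left the ratios of both genes past 2-fold in all 4 classes, but it also took their Control levels close to 0, so it bounds little. With barcodes of 2 lineages kept, the Cd14 log2 ratio of T cells was 1.64, that of ILC2s 2.01 and that of B cells 3.195. The Tlr2 log2 ratio was then 1.13 in T cells, 1.16 in ILC2s and 2.42 in B cells. The size of these lymphoid ratios thus depends on leaving such barcodes out. The part of RNA from myeloid cells in the lymphoid Cd14 and Tlr2 values was not tested further, and these values are not read as expression by lymphocytes. The median B cell, NK cell and ILC2 of the TTS library had no Cd14 UMI, but the median T cell had 1124 CPM.

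Across the 13 classes and both libraries (n = 26 points, which share their library and its free RNA), the log2 levels of Cd14 and Tlr2 correlated with r = 0.97. Tlr13 correlated with Tlr2 at 0.84 and with Myd88 at 0.80, and Ly96 with Tlr4 at 0.81. Tlr7 correlated best with Ly96, at 0.69. Tlr9, with few counts, correlated with the others at 0.17 or less. Of 9967 genes with enough UMIs, those most like Cd14 were Clec4a2 (0.98), Tlr2 (0.97) and Ptafr (0.96), and those most like Tlr2 were Slc15a3 (0.97), Cd14 (0.97) and Ptafr (0.95).

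The genes most like Ly96 were Hmox1 (0.87), Ifi204 (0.86) and Pla2g7 (0.86), and those most like Tlr4 were Csf3 (0.86), Pla2g7 (0.85) and Sdcbp (0.85). Tlr7 was most like Slc16a7 (0.91), Emilin1 (0.88) and Tank (0.87), and Tlr13 most like C130050O18Rik (0.93), F630028O10Rik (0.92) and AF251705 (0.92). Myd88 was most like Cd300a (0.89), Ifitm6 (0.88) and Ifitm2 (0.87). For Tlr9 the closest were Gga2 (0.61), Cd22 (0.61) and Cacna1i (0.58). These correlations are descriptions and carry no test.

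On GRCm38, Cd14 lies at chr18:36725067-36726798, Ly96 at chr1:16688051-16709611, Tlr2 at chr3:83836272-83841767 and Tlr4 at chr4:66827584-66930284. Tlr7 and Tlr13 are both on the X chromosome, at chrX:167304929-167330558 and chrX:106143204-106160493. Tlr9 and Myd88 are both on chromosome 9, at chr9:106222598-106226883 and chr9:119335934-119341411. Tlr7 and Tlr13 did not move together, since Tlr7 was lower in most classes and Tlr13 had no common direction, and Tlr9 had too few UMIs to be set beside Myd88.

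Among the other Toll-like receptors, 25 pairs of gene and class could be compared for the 7 genes Tlr1, Tlr3, Tlr5, Tlr6, Tlr8, Tlr11 and Tlr12, with 4 higher and 8 lower (16% and 32%, beside 12.2% and 14% of all pairs). Tlr3, the endosomal receptor for double-stranded RNA, was highest in cDC1s among the 13 classes and lower there in the TTS library, at 192 against 70.6 CPM (log2 ratio -1.44, -2.0 to -0.91). Tlr1, the partner of Tlr2, was at 7.20 and 24.7 CPM in Ccr2 macrophages (log2 ratio 1.67, 0.63 to 3.25). Of the 7 accessory proteins that fold, transport or assist these receptors, 10 of 84 pairs were higher and 20 lower (11.9% and 23.8%), and 4 and 20 of 63 without the lymphoid classes (6.35% and 31.7%). Ly86, the partner of Cd180, was at 419 and 185 CPM in resident macrophages and 558 and 196 CPM in classical monocytes, and Unc93b1, which escorts endosomal receptors, at 468 and 223 CPM in classical monocytes. Hsp90b1, of the same list, went the other way, at 517 and 764 CPM in resident macrophages and 357 and 708 CPM in classical monocytes. In nonclassical monocytes, where Tlr7 was lower, Unc93b1 was at 232 and 209 CPM, so the 2 genes did not always move together. With at least 100 UMIs required, 5 pairs of other Toll-like receptors remained, 3 of them higher (Tlr1) and 1 lower (Tlr3), so the balance of that list depends on the minimum. The share of all pairs at that minimum is not given, so these counts are not set against it.

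The 25 adaptors, kinases and transcription factors downstream were somewhat under the background, with 25 of 293 pairs higher and 24 lower (8.53% and 8.19%). Ikbke, a kinase that acts on interferon regulatory factors, was at 12 and 80.2 CPM in nonclassical monocytes and 6.03 and 33.4 CPM in resident macrophages. Ikbkb, a kinase of the NF-κB pathway, was at 642 and 216 CPM in nonclassical monocytes. Of the 16 brakes on the pathway, 30 of 193 pairs were higher and 13 lower (15.5% and 6.74%). Without the lymphoid classes it was 11 and 12 of 132 (8.33% and 9.09%), under the 12.3% and 13.8% of all pairs there. Nfkbia, the inhibitor that NF-κB itself induces, was at 2065 and 4251 CPM in resident macrophages and 3821 and 7399 CPM in classical monocytes, while Atf3 was at 1070 and 664 CPM in resident macrophages.

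Genes that the pathway induces and proposed ligands from damaged tissue stood furthest from the background. These lists were chosen with earlier results of the data known, so this distance is a description and not independent support. Of the 22 induced genes, 140 of 221 pairs were higher and 13 lower (63.3% and 5.88%). In the 9 classes other than lymphoid ones it was 98 higher and 11 lower of 168 (58.3% and 6.55%, beside 12.3% and 13.8% of all pairs). In classical monocytes the chemokine Ccl2 was at 40.3 and 4817 CPM, and Cxcl3 at 0 and 303 CPM, at least 32.6-fold higher. In nonclassical monocytes Ccl2 was at 7.19 and 2571 CPM on 3 Control UMIs (log2 ratio 8.26, 6.93 to 10.8), and Il1a at 0 and 348 CPM, at least 48.5-fold higher. In resident macrophages Il12b was at 0 and 40.1 CPM, at least 42.1-fold higher, and Il23a at 1.90 and 31.7 CPM. Cd40 was lower in these macrophages, at 51.7 against 26.7 CPM.

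Of the 7 proposed endogenous ligands, 30 of 62 pairs were higher and 4 lower (48.4% and 6.45%, beside 12.2% and 14% of all pairs). Without the lymphoid classes it was 18 and 4 of 42 (42.9% and 9.52%, beside 12.3% and 13.8%). Fn1 alone was past 2-fold in 12 of the 13 classes. Fn1, fibronectin, which has been proposed as a Tlr4 ligand when cut or alternatively spliced, was at 21.6 and 878 CPM in resident macrophages and at 0 and 3060 CPM in neutrophils, at least 335-fold higher. It was also higher in TTS lymphoid cells, at 6.05 and 2348 CPM in T cells and 1.70 and 1262 CPM in B cells. The share of neutrophil UMIs estimated to be free RNA was 3.43% and 17.1%, with macrophage markers at 274 and 687 CPM. The Fn1 values are therefore not read as expression by neutrophils, and their source was not tested. In macrophages this share was larger, at 10.9% and 28.8% in resident, 10.9% and 21.6% in MHC class II-high and 15.0% and 29.5% in Ccr2 cells. The part of free RNA in the macrophage values of Fn1 and of the induced genes was not tested. The alarmins S100a8 and S100a9 were lower in TTS neutrophils, at 35477 against 8861 CPM and 60979 against 16746 CPM. The neutrophil markers of that class were lower too, at 21258 against 6137 CPM, and alarmins were not tested apart from them. In classical monocytes they were higher, at 31.0 against 632 CPM and 3.10 against 250 CPM, on 10 and 1 Control UMIs (log2 ratio of S100a9 5.75, 3.85 to 11.6). Cells with both neutrophil and monocyte markers were gated apart, so the neutrophil markers left in classical monocytes (313 and 373 CPM) are limited by the gate, and neutrophil RNA in these values was not tested.

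Promoter windows of RefSeq (GRCm38.p6, 250 bases before to 50 after a transcript start) were matched for 4 of the 8 genes. Shown are the 3 of these whose levels ran together across classes, since Tlr2, Tlr13 and Myd88 correlated with each other at 0.73 to 0.84. Capitals mark matches on either strand to GAGGAA (the core bound by PU.1, in 28.1% of 32544 promoters of this length), GGG and CC with any 5 bases between (the κB type, 51%), TGANTCA (the AP-1 type, 7.79%) and TATAAA (the TATA box, 13.6%), and overlapping matches run together. The windows are chr3:83841559-83841858 (minus strand) for Tlr2, chrX:106143025-106143324 (plus strand) for Tlr13 and chr9:119339969-119340268 (minus strand) for Myd88. The Myd88 window lies inside the gene as placed by GENCODE, away from its annotated 5′ end, because RefSeq gives another start.
Tlr2: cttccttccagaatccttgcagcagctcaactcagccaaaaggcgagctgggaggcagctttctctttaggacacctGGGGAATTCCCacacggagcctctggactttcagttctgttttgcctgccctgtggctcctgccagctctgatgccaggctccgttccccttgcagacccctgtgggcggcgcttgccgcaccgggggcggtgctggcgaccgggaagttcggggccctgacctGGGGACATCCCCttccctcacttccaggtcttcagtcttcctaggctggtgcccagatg
Tlr13: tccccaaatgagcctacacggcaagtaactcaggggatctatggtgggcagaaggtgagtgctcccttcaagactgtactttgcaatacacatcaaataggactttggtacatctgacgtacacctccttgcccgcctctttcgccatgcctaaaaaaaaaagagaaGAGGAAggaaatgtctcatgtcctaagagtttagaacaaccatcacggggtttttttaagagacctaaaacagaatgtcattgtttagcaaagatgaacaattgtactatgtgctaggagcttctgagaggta
Myd88: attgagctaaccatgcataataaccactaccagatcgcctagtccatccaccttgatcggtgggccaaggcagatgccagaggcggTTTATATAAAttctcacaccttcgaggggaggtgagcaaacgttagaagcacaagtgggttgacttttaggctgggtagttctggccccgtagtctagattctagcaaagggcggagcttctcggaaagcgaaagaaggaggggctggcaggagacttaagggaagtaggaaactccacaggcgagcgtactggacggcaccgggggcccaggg
The Tlr2 window holds overlapping κB-type matches at 2 places, the Tlr13 window 1 PU.1-type match and the Myd88 window a pair of overlapping TATA matches. The 3 windows thus share no match to these letters. The Tlr9 window, matched but not shown, holds PU.1-type matches, as does that of Tlr13, and an AP-1-type match. A match is a description of the sequence and not a bound site.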

How the data were processed

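Upstream, the authors used UMI-tools 1.0.0 for barcodes, STAR 2.7.3a against mm10 and featureCounts 1.6.4, as their methods state. The deposited values are raw UMI counts per gene and barcode, without normalization. The cell filter was that of the methods (gene number over 500 and under 6000, mitochondrial share under 25%).

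Classes were gated on marker UMIs per 10000 with at least 3 distinct markers (B 10, T 3, NK 25, ILC2 5, neutrophil 15, pDC 5, cDC1 4, mature DC 8, cDC2 8, nonclassical 8, classical 30, macrophage 20). Macrophages were split by Timd4, Lyve1, Folr2 and Cd163 (5), then Ccr2 (2), then MHC class II (100). Not every class gated is described. Barcodes that passed gates of unrelated lineages were left out, which is how doublets were treated. These limits were read off the marker levels of the same files.

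UMIs were summed per class and library and scaled to CPM. Log2 ratios have 0.5 UMI added to each sum, so a fold can differ slightly from the quotient of 2 levels. A count of 0 was bounded with 3 counts over the class and library. Levels have exact Poisson, shares exact Clopper-Pearson and ratios exact conditional binomial intervals at 95%. Cells were thinned to 1000 UMIs to compare shares. For each list and class, the 2 strongest genes by log2 ratio in each direction, with at least 50 UMIs in the higher library, were written out. Most of the list genes named are a choice from these. For likeness, the 3 genes with the highest Pearson correlation of log2(CPM + 1) were named, among genes with at least 200 UMIs. The 8 genes, the 6 lists and the markers were chosen with earlier results of these data known. The ratio step was tested on simulated data. Alternatives, 16 listed at the start and 1 added after the data were seen, cover gates, filters, scaling, depth, free RNA, doublets and limits. Calculations ran in Python 3.11.15 (scipy 1.17.1, numpy 2.4.6, pandas 2.3.3, matplotlib 3.10.9, and scanpy 1.11.5 for Scrublet), with positions from GENCODE release M21.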

Additional observations from a re-analysis of the deposited data

Results flagged for a closer look

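The log2 ratio of Ly96 had opposite signs in 2 classes, past 2-fold and with intervals apart from 0 in both. It was 3.13 (1.66 to 5.29) in T cells, on 4 Control and 18 TTS UMIs, and -1.45 (-2.61 to -0.59) in MHC class II-high macrophages, on 138 and 10 UMIs, a gap of 4.58. The difference was not tested. T cells of the TTS library also held more monocyte and macrophage marker UMIs, and with barcodes of 2 lineages kept the T cell value was 0.66.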

How the results depend on the processing

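Of the 25 pairs of gene and class past 2-fold, 17 stayed past it under every alternative that gave a value and 24 kept their direction. Outside the lymphoid classes, those that stayed past it were Cd14 in neutrophils and nonclassical monocytes, and Tlr4 in both monocyte classes. Tlr7 did so in both monocyte classes and in MHC class II-high macrophages. The rest of the 17 were Cd14, Tlr2 and Ly96 in lymphoid classes. There, Cd14 and Tlr2 are not read as expression, and Ly96 in B cells is not a detected difference. The pair that changed direction was Tlr7 in B cells, which rests on 0 TTS UMIs and came to 0.012 on the log2 scale when barcodes of 2 lineages were kept. That alternative gave 25 higher and 4 lower pairs in place of 18 and 7, and it left no neutrophils with monocyte or macrophage markers. It gave a value for 65 of the 72 pairs, and the share of all genes under it is not given beside these counts. A fold limit of 1.5 gave 28 higher and 10 lower pairs of 72, beside 22.9% and 26.9% of all pairs. Without B, T and NK cells and ILC2s, an alternative chosen after seeing the data, 6 higher pairs remained, since 12 of the 18 lay in these classes. The other alternatives gave 15 to 22 higher and 5 to 9 lower pairs. The shares of all genes under them are not given, so these counts are not set against a background. Over all 72 pairs, 62 kept their sign under both other scalings and 44 under every alternative. Of the 47 pairs within 2-fold, 17 passed it under at least 1 alternative. Scaling by the median ratio added between -0.43 (MHC class II-high macrophages) and 0.63 (neutrophils) to each log2 ratio. Depth limits Tlr9, Tlr4 in Control monocytes and every gene in pDCs, and 38 Control classical monocytes limit that class. The free-RNA subtraction took Control levels in lymphoid classes close to 0, so its ratios there are not bounds. Thinning to 2000 in place of 1000 UMIs gave other shares of cells, mostly higher ones, as more UMIs per cell were kept.

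Requiring at least 100 UMIs per gene raised the higher share of other Toll-like receptors from 16.0% to 60% (3 of 5 pairs), with a lower share of 20% in place of 32%, and lowered that of accessory proteins from 11.9% to 4.62%. It also lowered the lower share of adaptors, kinases and transcription factors from 8.19% to 4.65%. All genes were counted at the minimum of 20 UMIs, so these shares have no background at 100 UMIs and are not read against one.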

Other observations

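Outside the classes, the 1694 Control and 1482 TTS barcodes with no class held 62.2% and 22.9% of the Cd14 UMIs and 57.2% and 23.0% of the Tlr7 UMIs of their library. Of these barcodes, 1174 Control and 366 TTS passed both a lymphoid and a myeloid gate, with medians of 13674 and 11262 UMIs, and 171 and 781 passed no gate. Their Cd14 level was 1376 and 2729 CPM, Tlr2 220 and 333 CPM, Tlr4 15.4 and 25 CPM and Tlr7 50 and 19.5 CPM. Cd14, Tlr2 and Tlr4 were thus higher and Tlr7 lower in the TTS library. These values include the different makeup of the barcodes in the libraries.

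Mature dendritic cells of the TTS library, 28 cells, had Cd14 at 1000 CPM, above cDC2s at 797 CPM and cDC1s at 146 CPM, and no Tlr4 UMI.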
